A study of Mus musculus with 96 samples.

Results

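Haematopoietic stem cells (HSCs) of the E12.5 mouse fetal liver were set against E11.5 pre-HSCs of the aorta-gonad-mesonephros (AGM) region, cell by cell. The members were taken by sample title, and cells with under 2000 detected genes were left out. That kept 63 of the 96 cells of the series, namely 48 of 48 AGM cells and 15 of 16 liver cells. Liver cell 8, with 1011 genes, was the cell left out. All cells came from C57BL/6 embryos with no transgene, deletion or treatment named in the labels. The AGM gate took cells with CD144, c-Kit and EPCR and without Ter119 or CD11b. The liver gate took cells with c-Kit, EPCR and Sca-1 and without Ter119. Stage, tissue and gate therefore differ together and cannot be told apart. The series also holds E11.5 yolk sac pre-HSCs and E14.5 liver HSCs, which are used below only for a few side values.

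Each cell filled a well of its own, and its RNA was turned into cDNA by SMART-Seq, a method that reads along whole transcripts. No animal, litter or pool is named, so each group counts as 1 sample and no test was made. Intervals on shares of cells are exact Clopper-Pearson 95% intervals, and those on pooled CPM ratios come from read counts. Both cover counting error only and say nothing of differences between embryos. Read totals ran from 267500 to 1889909 in AGM cells and from 632526 to 1889832 in liver cells, with medians of 1198310 and 1200796. Genes detected per cell had a median of 5522.5 in AGM and 4077 in liver. After every cell was thinned to 500000 reads those medians were 5296 and 3831, over 47 and 15 cells. Fewer genes were thus seen per liver cell at equal depth, and detection shares are read beside that fact. Wells with 10000 or more genes were AGM cells 1, 8 and 36 and liver cell 1. AGM cells 3 and 36 stood apart by their endothelial receptor genes, with sums of 14493 and 8363 CPM against a group median of 2100 CPM. They were also among the 3 AGM cells lowest in leukocyte genes.

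In the mid-gestation embryo HSCs arise from haemogenic endothelium of the dorsal aorta, a vessel lining that gives off blood cells. Pre-HSCs are the intermediates: they still carry the endothelial cadherin CD144 and must mature before they can rebuild the blood of an adult host. The fetal liver is then seeded by such cells and is the organ in which HSCs expand before they move to the bone marrow.

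For each gene the level was the mean over cells of CPM, a cell's counts scaled to a total of 1000000, and the ratio was liver over AGM on the log2 scale after 1 CPM was added. The added CPM makes differences of scarce genes look smaller than they are. A ratio in brackets is the value without the highest cell of a group, given where leaving that cell out moved it by over 1.5 times. Of 14365 genes with at least 30 reads, 2359 (16.4%) were over 2-fold higher in liver and 4153 (28.9%) over 2-fold lower. The share of cells with a read was at least 30 percentage points higher in liver for 80 genes (0.557%) and lower for 1033 genes (7.19%). Both thresholds were passed upwards by 71 genes (0.494%) and downwards by 622 genes (4.33%). The median ratio over all genes was −0.28 and the median difference in share was −6.25 points, or −6.38 points after thinning. List counts below are set beside these values. Some genes named below were chosen from the lists after their values were seen, to show members that did not differ or went the other way. Past-threshold genes leaned towards AGM: 36.2% of those past 2-fold were higher in liver, and this was 49.1% with 10 CPM added and 17.8% when log2 CPM values were averaged.

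The genes behind the sort antibodies were looked at first. Cdh5, the CD144 gene, was detected in 93.8% (82.8% to 98.7%) of AGM cells and 20% (4.33% to 48.1%) of liver cells. Its lowest, median and highest levels were 0, 35.3 and 283 CPM in AGM and 0, 0 and 33.9 CPM in liver, a log2 ratio of −3.97 (−5.51 without liver cell 2). Ly6a, which encodes Sca-1, was read in 45.8% (31.4% to 60.8%) of AGM cells and 80% (51.9% to 95.7%) of liver cells. The median Ly6a level was 0 in AGM and 190.3 CPM in liver, means were 32.1 CPM in AGM and 259.7 CPM in liver, and the log2 ratio was 2.98. Each marker was thus higher in the group gated on it, and since the gates select for these proteins this is no finding. Kit, the receptor for stem cell factor and part of both gates, was read in 43 of 48 AGM cells and 12 of 15 liver cells. Its means were 93.9 CPM in AGM and 95.9 CPM in liver, but its medians were 67.8 CPM in AGM and 7.22 CPM in liver. The highest Kit level was 322 CPM in AGM and 432 CPM in liver. Procr, which encodes EPCR and is also part of both gates, was detected in 85.4% (72.2% to 93.9%) of AGM cells and 53.3% (26.6% to 78.7%) of liver cells. Its means were 301 CPM in AGM and 91.1 CPM in liver, a log2 ratio of −1.72. Kit, Ly6a and Procr were read together in 18 of 48 AGM cells (37.5%) and 5 of 15 liver cells (33.3%). Kit, Cdh5 and Procr were read together in 35 AGM cells and 3 liver cells. Ptprc, which encodes the pan-leukocyte antigen CD45, was read in 28 of 48 AGM cells and 12 of 15 liver cells. Its means were 72.8 CPM in AGM and 73.8 CPM in liver, but its medians were 18.3 CPM in AGM and 74.5 CPM in liver. Itgam, the gene of CD11b, had a read in 8 of 48 AGM cells and 5 of 15 liver cells, with a log2 ratio of 1.21 (0.32 without liver cell 5 and 1.87 without AGM cell 13).

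**Figure D1:**
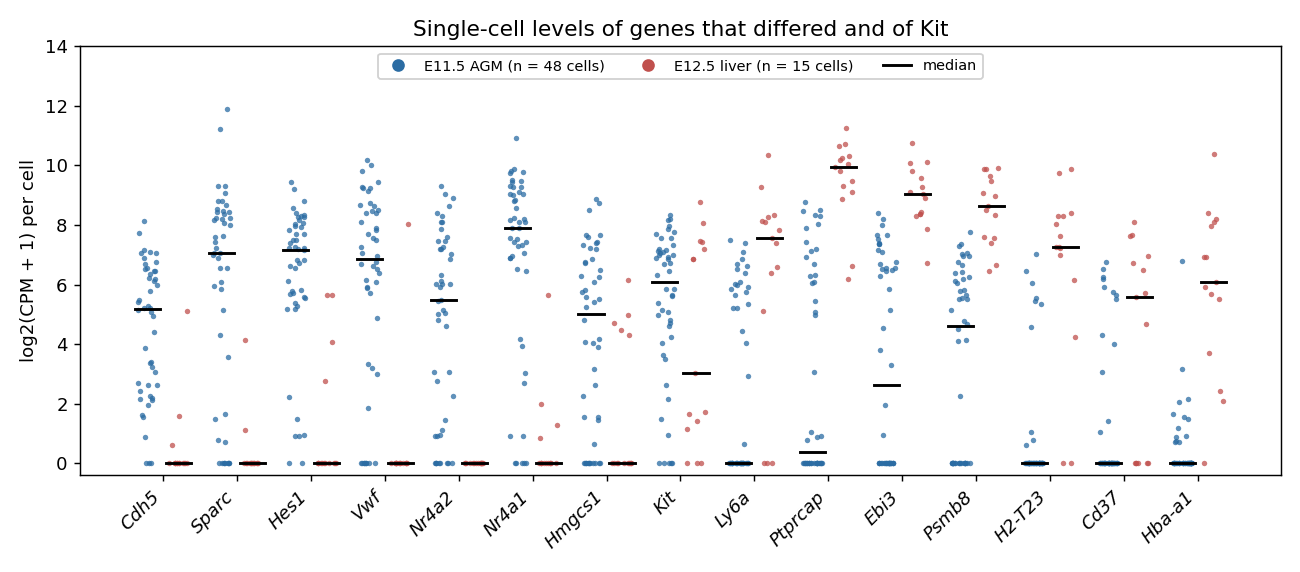
Level of 15 genes in single cells, as log2(CPM + 1) on the vertical axis. Each dot is a cell, blue for 48 E11.5 AGM cells and red for 15 E12.5 liver cells, and black bars are medians. Cdh5, Sparc, Hes1, Vwf, Nr4a2, Nr4a1 and Hmgcs1 sit at 0 in most liver cells, while every liver cell has reads of Ptprcap, Ebi3 and Psmb8.

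Genes of endothelial cell contact were lower in liver, except for a few. Such junctions hold the vessel lining together and are given up by cells that leave it. Of 19 measured junction and adhesion genes, 14 were over 2-fold lower in liver and none was over 2-fold higher. The 14 include Cdh5, which the AGM gate selects for and which is therefore no finding. Cldn5, the tight junction claudin of endothelium, was read in 64.6% (49.5% to 77.8%) of AGM cells and 6.67% (0.169% to 31.9%) of liver cells. For Cldn5 the lowest, median and highest levels were 0, 47.8 and 2243 CPM in AGM and 0, 0 and 2.0 CPM in liver. Its liver signal was 2 reads in 1 cell, and pooled AGM CPM over pooled liver CPM was 1678 (counting interval 464 to 13854). Pecam1, a homophilic adhesion molecule of the vessel lining, had a read in 41 of 48 AGM cells and 4 of 15 liver cells and a log2 ratio of −2.04 (−4.15 without liver cell 7). Ctnna1, the alpha-catenin that ties cadherins to actin, was read in 34 of 48 AGM cells and 5 of 15 liver cells, with a log2 ratio of −1.69 (−2.54 without liver cell 13). Ctnnb1 and Ctnnd1, which encode beta- and p120-catenin, had ratios of −1.17 and −2.04 (−2.65 without liver cell 4). Esam, an endothelial adhesion molecule that HSCs also display, did not follow them. Its lowest, median and highest levels were 0, 361 and 1845 CPM in AGM and 0, 376 and 2122 CPM in liver, with reads in 44 of 48 AGM cells and 13 of 15 liver cells. Tjp1, a tight junction scaffold, had means of 28.5 CPM in AGM and 37.8 CPM in liver, a ratio of 0.40 (−0.71 without liver cell 15), from reads in 33 of 48 AGM cells and 6 of 15 liver cells. The sign for Tjp1 thus turned with 1 cell.

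Receptors of the vessel lining were lower in part. Among 22 endothelial receptor genes, 12 were over 2-fold lower in liver and 1 was over 2-fold higher. Kdr, the main VEGF receptor, was detected in 50% (35.2% to 64.8%) of AGM cells and 0 of 15 liver cells. For Kdr the lowest, median and highest levels were 0, 0.444 and 654 CPM in AGM and 0, 0 and 0 CPM in liver. A count of 0 of 15 cells allows a share of up to 20% here and wherever it occurs below, and pooled Kdr was at least 244-fold higher in AGM against a floor of 3 reads. That level leaned on AGM cells 3 and 36: the log2 ratio was −5.49 with them and −4.44 without them. Flt1, the VEGF receptor that acts largely as a decoy, was read in 29 of 48 AGM cells and 2 of 15 liver cells, with a ratio of −2.77 (−5.15 without liver cell 3). S1pr1, the sphingosine-1-phosphate receptor, had 33 and 4 cells with a read and a ratio of −2.39 (−3.12 without liver cell 13). Ptprb, the vascular phosphatase that restrains Tie2, had 19 and 1 cells and −2.12 (−4.09 without liver cell 11). Adgrl4, an adhesion G protein-coupled receptor, was the exception above 2-fold. It was read in 42 of 48 AGM cells and 15 of 15 liver cells at means of 147.5 CPM in AGM and 436 CPM in liver. Receptors shared by endothelium and HSCs lay between the thresholds: Emcn had a ratio of −0.15, Eng of −0.29, Cd34 of −0.87 and Cd93 of −0.87.

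Notch signalling, which sets arterial fate and is needed for HSC emergence in the aorta, was represented by 19 genes with arterial markers. Of these, 12 were over 2-fold lower in liver and 2 over 2-fold higher, with a list median of −2.25, or −2.26 with genes at 0 in a group set at their bound. Without AGM cells 3 and 36 the numbers were 9 lower and 3 higher of 18 measured, with a median of −1.21. Hes1, a repressor that Notch switches on, was detected in 95.8% (85.7% to 99.5%) of AGM cells and 26.7% (7.79% to 55.1%) of liver cells. For Hes1 the lowest, median and highest levels were 0, 143.7 and 695 CPM in AGM and 0, 0 and 49.7 CPM in liver, a ratio of −4.21. Nearly every AGM cell thus had Hes1 reads, while 11 of 15 liver cells had none. Hey1, a related Notch target, was read in 15 of 48 AGM cells and 0 of 15 liver cells. Pooled Hey1 reads were at least 219.4-fold higher in AGM, and the log2 ratio was −5.11 (−4.47 without AGM cell 3). Nrp1, a co-receptor for VEGF and semaphorins, was read in 16 of 48 AGM cells and 0 of 15 liver cells, with its highest AGM level at 1257 CPM. Pooled Nrp1 reads were at least 295-fold higher in AGM, and the log2 ratio was −5.76 (−4.84 without AGM cell 3). The ligand Dll4 had reads in 17 of 48 AGM cells and 1 of 15 liver cells and a ratio of −3.46 (−5.61 without liver cell 1). The receptor Notch1 had means of 10.4 CPM in AGM and 19.6 CPM in liver, a ratio of 0.85 (−0.23 without liver cell 3), and its sign turned with that cell. Maml2, a Notch co-activator, and Lfng, a glycosyltransferase that tunes Notch, were the genes over 2-fold higher, with ratios of 1.07 (0.11 without liver cell 5) and 1.42 (0.09 without liver cell 11 and 2.01 without AGM cell 26).

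Transcription factors of endothelium were lower in liver in part, and genes of the response to flowing blood were mostly lower. Of 17 endothelial factor genes, 9 were over 2-fold lower and none was over 2-fold higher. Their sums per cell had medians of 478 CPM in AGM and 392 CPM in liver, and 7 of 15 liver cells lay above the AGM median. Klf2 and Klf4, factors that shear stress induces, were read in 34 of 48 AGM cells and 4 of 15 liver cells and in 24 of 48 AGM cells and 0 of 15 liver cells. The Klf2 ratio was −1.86 (−2.58 without liver cell 7), and pooled Klf4 was at least 123-fold higher in AGM. Of 15 flow-response genes, which also include Klf2 and Klf4, 11 were over 2-fold lower in liver and none was over 2-fold higher. Ptgs1 and Ptgs2 encode the cyclooxygenases that make prostaglandins. Ptgs1 was read in 35 of 48 AGM cells and 4 of 15 liver cells with a ratio of −1.17. Ptgs2 was read in 17 of 48 AGM cells and 0 of 15 liver cells, at least 89.6-fold higher in AGM in pooled reads. Hhex, a homeobox factor of both endothelium and blood, was at 136 CPM in AGM and 264 CPM in liver, and Sox18 at 56.9 CPM in AGM and 52.4 CPM in liver. Neither was over 2-fold apart.

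Matrix genes held the most one-sided counts of the lists. Of 27 measured genes of basement membrane, matrix and matrix turnover, 25 were over 2-fold lower in liver and 10 were at least 30 points lower in share. The list median was −3.31, or −4.66 with genes at 0 in a group set at their bound. Sparc, a collagen-binding matrix protein, was read in 81.2% (67.4% to 91.1%) of AGM cells and 13.3% (1.66% to 40.5%) of liver cells. For Sparc the lowest, median and highest levels were 0, 132 and 3848 CPM in AGM and 0, 0 and 16.7 CPM in liver, a ratio of −7.11 (−8.12 without liver cell 5). Mmp2, a gelatinase that cuts type IV collagen, had a read in 29 of 48 AGM cells and 0 of 15 liver cells. Timp3, a matrix-bound inhibitor of such proteases, had a read in 26 of 48 AGM cells and 0 of 15 liver cells. In pooled reads Mmp2 was at least 713-fold and Timp3 at least 304-fold higher in AGM. Serpinh1, the collagen chaperone HSP47, was read in 37 of 48 AGM cells and 4 of 15 liver cells, at a ratio of −4.49 (−5.17 without liver cell 1). Fn1, which encodes fibronectin, had means of 354 CPM in AGM and 36.9 CPM in liver and reads in 45 of 48 AGM cells and 7 of 15 liver cells. Col18a1, the source of endostatin, stayed near the same mean, at 151.4 CPM in AGM and 129 CPM in liver. The summed level of the list in a cell, given as lowest, median and highest, was 597, 1818 and 11387 CPM in AGM and 29.5, 452 and 935 CPM in liver. All 15 liver cells lay under the AGM median, 9 of them under every AGM cell, and 42 of 48 AGM cells lay above every liver cell. Without AGM cells 3 and 36 the count of lower genes was still 25 of 27, with a median of −2.70.

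**Figure D2:**
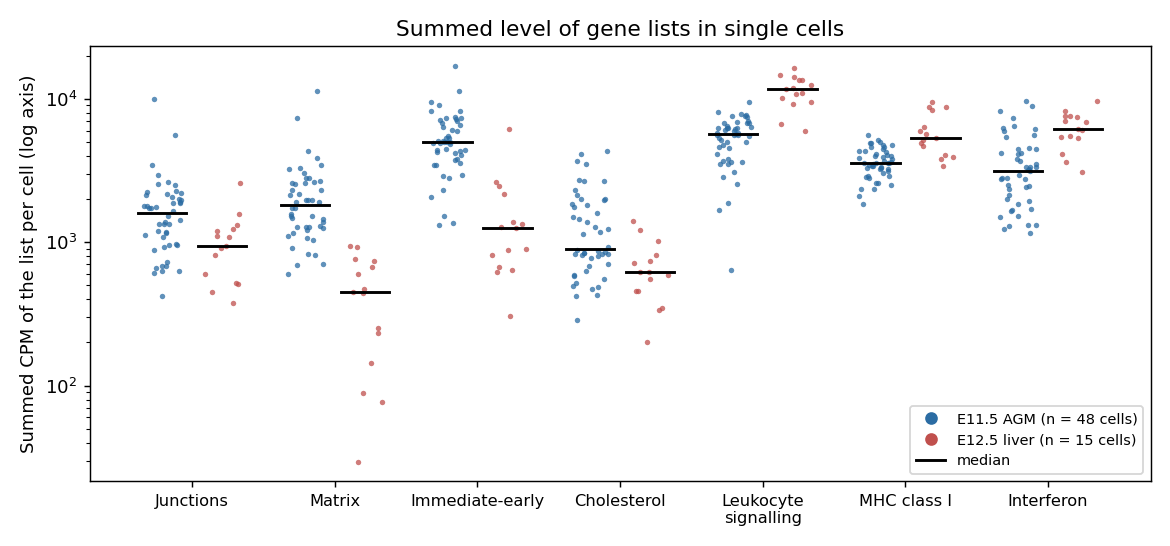
Summed CPM of 7 gene lists in single cells on a log axis, blue for 48 AGM cells and red for 15 liver cells, with medians as black bars. The matrix and immediate-early lists have liver medians of 452 and 1247 CPM against 1818 and 4983 CPM in AGM, and the leukocyte signalling list has 11732 against 5674 CPM.

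BMP and TGF-beta signalling from the tissue under the aorta is known to act on emerging HSCs. Of 22 genes of both pathways, 13 were over 2-fold lower in liver and 2 over 2-fold higher. Id3, an inhibitor of bHLH factors that BMP induces, was read in 83.3% (69.8% to 92.5%) of AGM cells and 33.3% (11.8% to 61.6%) of liver cells. For Id3 the lowest, median and highest levels were 0, 239 and 4292 CPM in AGM and 0, 0 and 566 CPM in liver, a ratio of −3.38 (−4.68 without liver cell 11). Id2 had reads in 36 of 48 AGM cells and 5 of 15 liver cells with a ratio of −1.42 (−2.13 without liver cell 11), and Id1 a ratio of −0.76 (−1.98 without liver cell 9). Skil, a SMAD co-repressor that TGF-beta induces, had reads in 37 of 48 AGM cells and 1 of 15 liver cells and a ratio of −3.53 (−6.31 without liver cell 5). The receptor Bmpr2 had reads in 22 of 48 AGM cells and 2 of 15 liver cells, with a ratio of −1.98 (−2.59 without liver cell 1). Smad5 and Tgfbr2, a BMP signal carrier and a TGF-beta receptor, were the genes over 2-fold higher, at 2.26 (1.35 without liver cell 10) and 1.23 (−2.77 without liver cell 7).

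Immediate-early genes are switched on within minutes of a signal, with no new protein needed. Of 37 measured, 29 were over 2-fold lower in liver and 2 over 2-fold higher, and 16 were at least 30 points lower in share. Nr4a2, an orphan nuclear receptor, had the largest difference in share towards AGM of all 14365 genes, with reads in 81.2% (67.4% to 91.1%) of AGM cells and 0 of 15 liver cells. Its AGM levels had a lowest, median and highest value of 0, 43.3 and 641 CPM, every liver cell was at 0, and pooled AGM reads were at least 697-fold higher in AGM. For its relative Nr4a1 the lowest, median and highest levels were 0, 238 and 1936 CPM in AGM and 0, 0 and 49.2 CPM in liver, with reads in 43 of 48 AGM cells and 4 of 15 liver cells and a ratio of −6.22 (−7.98 without liver cell 2). Both receptors were thus close to absent from liver reads, and Nr4a3 was read in 19 of 48 AGM cells and 0 of 15 liver cells. Fosb, an AP-1 subunit, was read in 35 of 48 AGM cells and 1 of 15 liver cells, with a pooled AGM over liver ratio of 517 (counting interval 142.9 to 4268). Egr1, a zinc-finger factor, was read in 41 of 48 AGM cells and 4 of 15 liver cells at a ratio of −4.26 (−5.83 without liver cell 7). Btg2, an antiproliferative gene, was read in 38 of 48 AGM cells and 3 of 15 liver cells at −5.25 (−6.30 without liver cell 1). Fos and Junb had ratios of −2.38 (−3.99 without liver cell 14) and −2.17 (−3.25 without liver cell 9), whereas Jun had 0.13 (−0.70 without liver cell 9) and Myc 0.22. The highest ratio of the list was 3.75. The summed level of the list ran at 1321, 4983 and 16903 CPM in AGM and 305, 1247 and 6117 CPM in liver for the lowest, median and highest cell. Of the liver cells, 9 lay under every AGM cell, and liver cell 9 lay above the AGM median.

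Promoter windows of RefSeq, from 250 bases before to 50 after a gene's start on GRCm38.p6, were searched on both strands for motifs of the factors that act on such genes. For immediate-early genes, 32 of 37 had a window, 43 in all. The CRE, TGACGTCA, was in 4 windows (9.30%), against 1.79% of all 32851 windows. The CArG box, which serum response factor binds, was in 5 windows (11.6%), 4 of them windows of different Egr2 starts, 3 of which overlap, against 1.63%. The AP-1 motif, TGANTCA, was in 3 windows (6.98%) against 7.81%. A match says only that the letters are present. Examples follow as 200 bases up to the gene's start, with the motif in capitals, a CRE in Btg2 and a CArG box in Zfp36. They were chosen after the matches were seen.
Btg2, chr1:134079156-134079355 (minus strand): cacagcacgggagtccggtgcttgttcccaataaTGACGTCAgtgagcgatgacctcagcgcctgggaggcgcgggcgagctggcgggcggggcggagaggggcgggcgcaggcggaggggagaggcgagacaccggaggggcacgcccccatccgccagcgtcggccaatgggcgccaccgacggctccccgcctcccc
Zfp36, chr7:28379229-28379428 (minus strand): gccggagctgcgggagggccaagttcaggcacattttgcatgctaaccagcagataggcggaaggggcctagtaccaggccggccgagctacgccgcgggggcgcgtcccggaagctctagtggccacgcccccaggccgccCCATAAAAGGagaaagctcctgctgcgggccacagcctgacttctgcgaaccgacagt
Zfp36, which encodes an mRNA-destabilising protein, was read in 37 of 48 AGM cells and 9 of 15 liver cells at a ratio of −1.22.

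Transcription factors of blood formation came next. Of 23 factors of the endothelial-to-blood step, 9 were over 2-fold higher in liver and 1 was over 2-fold lower, with a median of 0.76. The lower gene was Etv2, an early factor that starts the endothelial and blood lineages, read in 18 of 48 AGM cells and 0 of 15 liver cells. Pooled Etv2 reads were at least 374-fold higher in AGM, and the log2 ratio was −5.93 (−5.24 without AGM cell 46). Runx1, the factor without which the step fails, had means of 96.9 CPM in AGM and 53.8 CPM in liver and reads in 42 of 48 AGM cells and 10 of 15 liver cells. Gata2 had a ratio of −0.37 (−1.09 without liver cell 9) and Spi1, which encodes PU.1, of −0.47. Among the higher genes, Nfe2, a bZIP factor of megakaryocytic and erythroid cells, was read in 43 of 48 AGM cells and 15 of 15 liver cells. Means for Nfe2 were 208.96 CPM in AGM and 664 CPM in liver, a ratio of 1.66. Ikzf1, which encodes Ikaros, had a ratio of 1.81 (1.19 without liver cell 7), Cbfa2t3, a co-repressor, of 1.83, and Gfi1, a repressor of endothelial genes, of 1.24. Per cell, 14 of 15 liver cells had a list sum above the AGM median, and 3 lay above every AGM cell. The number of list genes with a read went the other way, with thinned medians of 15 in AGM and 12 in liver, and 2 genes were at least 30 points lower in share against none higher.

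Factors tied to HSC identity had no common direction. Of 24, 6 were over 2-fold higher, 4 over 2-fold lower and 14 between, with a median of 0.03. Over all genes 16.4% were higher and 28.9% lower, with a median of −0.28. Hlf, a bZIP factor that marks HSCs, was read in 30 of 48 AGM cells and 12 of 15 liver cells at a ratio of 1.10 (0.45 without liver cell 9). Mecom, which encodes Evi1, had a ratio of 0.61 (−0.05 without liver cell 15), Meis1 of 0.36 and Hoxa9 of 0.43. Hmga2, a fetal chromatin factor, had reads in every cell of both groups, with means of 206.4 CPM in AGM and 210.7 CPM in liver. Tcf15, a bHLH factor, passed both thresholds downwards. It was read in 31 of 48 AGM cells and 5 of 15 liver cells with a ratio of −1.84 (−3.04 without liver cell 15). Mycn, at 1.20, and Satb1, a chromatin organiser of lymphoid potential, at 1.53 (0.86 without liver cell 5), were higher.

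Receptors for blood growth factors also had members in both directions. Of 24 genes, 8 were over 2-fold higher and 6 over 2-fold lower, beside 16.4% and 28.9% of all genes. None differed by 30 points of share. Flt3, which marks multipotent progenitors, was read in 22 of 48 AGM cells and 10 of 15 liver cells with a ratio of 1.63. Il2rg, the common gamma chain, was read in 26 of 48 AGM cells and 11 of 15 liver cells. For Il2rg the lowest, median and highest levels were 0, 0.675 and 347 CPM in AGM and 0, 326 and 911 CPM in liver, a ratio of 2.67. Csf3r, the G-CSF receptor, had reads in 13 of 48 AGM cells and 6 of 15 liver cells and a ratio of 3.26 (2.46 without liver cell 7). Il12rb1 was read in 1 liver cell and no AGM cell. Csf1r was read in 5 AGM cells and 1 liver cell, with a ratio of −3.43 (−2.65 without AGM cell 19) that turned to 3.18 when liver cell 8 was kept.

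Leukocyte signalling genes were higher in liver cell by cell. Of 43 measured, 22 were over 2-fold higher and 3 over 2-fold lower, with a median of 1.06. Without the 4 wells of 10000 or more genes the counts were 22 and 7. The summed level per cell was 643, 5674 and 9486 CPM in AGM and 6011, 11732 and 16369 CPM in liver for the lowest, median and highest cell. All 15 liver cells lay above the AGM median, 12 of them above every AGM cell, and 28 AGM cells lay below every liver cell. The number of list genes with a read after thinning differed little, with medians of 20 in AGM and 22 in liver out of 43. The sums were carried by abundant genes: Arhgdib, a regulator of small GTPases, had means of 1000 CPM in AGM and 3047 CPM in liver and reads in every cell. Rac2, the blood-specific Rac GTPase, had 293 CPM in AGM and 971 CPM in liver, and Coro1a, an actin regulator, 1182 CPM in AGM and 1940 CPM in liver. Cd37, a leukocyte tetraspanin, passed both thresholds. It was read in 27.1% (15.3% to 41.8%) of AGM cells and 60% (32.3% to 83.7%) of liver cells, and the lowest, median and highest levels were 0, 0 and 108 CPM in AGM and 0, 47.1 and 276 CPM in liver, a ratio of 2.49. Lsp1, Selplg and Ptpn7, an actin-binding protein, the P-selectin ligand and a lymphoid phosphatase, had ratios of 2.20, 2.41 and 2.56 (1.68 without liver cell 10). Syk, a kinase of immune receptors, went the other way at −1.39, and the lowest ratio of the list was −3.86.

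The motif of PU.1, GAGGAAGT, was in 4 of 47 promoter windows of the leukocyte list (8.51%), against 3.20% of all windows. That of RUNX factors, TGTGGT, was in 11 windows (23.4%) against 16.8%. The Cd37 promoter, with the PU.1 motif on the opposite strand in capitals, reads as follows.
Cd37, chr7:45238840-45239039 (minus strand): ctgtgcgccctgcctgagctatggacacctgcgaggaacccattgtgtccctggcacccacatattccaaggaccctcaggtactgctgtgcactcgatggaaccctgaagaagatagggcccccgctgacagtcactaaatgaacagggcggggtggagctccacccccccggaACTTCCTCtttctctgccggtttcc

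Adhesion and homing receptors differed in both directions. Of 21 genes, 8 were over 2-fold lower in liver and 4 over 2-fold higher, beside 28.9% and 16.4% of all genes. The integrin chains Itga5, Itgb3 and Itga2b, for fibronectin, vitronectin and fibrinogen receptors, passed both thresholds downwards, as did S1pr1. Itga5 was read in 33 of 48 AGM cells and 3 of 15 liver cells with a ratio of −2.74 (−3.45 without liver cell 14). Itgb3 was read in 30 of 48 AGM cells and 3 of 15 liver cells with −3.68 (−4.53 without liver cell 1). Itga2b, the CD41 gene that marks the earliest blood cells, was read in 54.2% (39.2% to 68.6%) of AGM cells and 13.3% (1.66% to 40.5%) of liver cells with a ratio of −5.28. The alpha-4 integrin Itga4, which binds VCAM-1, was higher at 1.09. Cxcr4, the receptor that draws HSCs to CXCL12, was read in 7 of 48 AGM cells and 4 of 15 liver cells at means near 1 CPM.

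Antigen presentation by MHC class I had members higher in liver and none lower past 2-fold. Of 22 class I and immunoproteasome genes, 9 were over 2-fold higher and none over 2-fold lower, and 4 passed both thresholds. H2-T23, which encodes the non-classical molecule Qa-1, was read in 20.8% (10.5% to 35%) of AGM cells and 86.7% (59.5% to 98.3%) of liver cells. For H2-T23 the lowest, median and highest levels were 0, 0 and 129 CPM in AGM and 0, 153.9 and 942 CPM in liver, a ratio of 4.69. Psmb8, a catalytic subunit of the immunoproteasome, was read in 58.3% (43.2% to 72.4%) of AGM cells and 100% (78.2% to 100%) of liver cells. For Psmb8 the lowest, median and highest levels were 0, 23.3 and 214.2 CPM in AGM and 86.4, 399 and 967 CPM in liver, a ratio of 3.40. Every liver cell thus had Psmb8 reads, and the liver median lay above the highest AGM cell. Its partner Psmb9 was read in 20 of 48 AGM cells and 12 of 15 liver cells with a ratio of 2.23. Tap2, a chain of the peptide transporter, was read in 8 of 48 AGM cells and 7 of 15 liver cells with 2.50. The light chain B2m was in every cell, at 442 CPM in AGM and 1007 CPM in liver, and the heavy chains H2-K1 and H2-D1 had ratios of 1.71 and 0.74. Class I genes are near-copies of each other, so reads may be split among them. Calr, Pdia3 and Canx, chaperones that load class I but serve all secreted proteins, had ratios of −0.72, −0.48 and −0.07.

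The core of the interferon-stimulated response element (ISRE), searched on both strands as GAAA, any 2 bases and GAAA, was in 5 of 21 promoter windows of this list (23.8%), against 3.44% of all windows. The genes were H2-T23, H2-T22, B2m, Erap1 and Psme1. Promoters of H2-T23 and B2m are shown as 200 bases up to the gene's start, the ISRE core in capitals, on the opposite strand for H2-T23.
H2-T23, chr17:36032702-36032901 (minus strand): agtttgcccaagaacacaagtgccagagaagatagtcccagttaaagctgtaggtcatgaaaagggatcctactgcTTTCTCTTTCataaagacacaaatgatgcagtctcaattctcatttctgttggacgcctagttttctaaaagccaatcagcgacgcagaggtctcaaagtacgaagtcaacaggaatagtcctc
B2m, chr2:122147487-122147686 (plus strand): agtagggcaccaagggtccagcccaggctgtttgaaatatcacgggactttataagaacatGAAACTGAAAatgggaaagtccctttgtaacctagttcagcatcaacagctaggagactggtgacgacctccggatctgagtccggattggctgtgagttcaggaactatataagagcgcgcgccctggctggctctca

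Interferon-response genes had a wider spread. Of 37, 18 were over 2-fold higher in liver and 5 over 2-fold lower, with a median of 0.96. Ifi203, a nuclear sensor-family gene, was read in 1 of 48 AGM cells and 7 of 15 liver cells, and pooled liver over AGM was 555 (counting interval 188.7 to 2698) from 3 AGM reads. Isg20, an RNA exonuclease, was read in 4 of 48 AGM cells and 6 of 15 liver cells at 2.92 (2.31 without liver cell 10 and 3.51 without AGM cell 10), and Irgm1, an immunity GTPase, in 12 of 48 AGM cells and 8 of 15 liver cells at 4.37. Gbp7 passed both thresholds, but its ratio of 1.02 (−0.16 without liver cell 4) reversed with that cell left out. Without wells of 10000 or more genes, 1 gene of the list was 30 points higher in share, where there had been 3. Classical targets differed among themselves: Isg15 was read in 7 of 48 AGM cells and 2 of 15 liver cells, Ifit1 in 4 of 48 AGM cells and 2 of 15 liver cells, and Rsad2 had a ratio of −2.98 (−1.58 without AGM cell 10 and −3.82 without liver cell 1). Ifitm2 was level at 1034 CPM in AGM and 1024 CPM in liver, while Ifitm1 had 861 CPM in AGM and 2057 CPM in liver. Irf9 and Irf7, factors of the type I response, had ratios of 2.16 and 1.93 (1.13 without liver cell 10 and 2.89 without AGM cell 40).

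**Figure D3:**
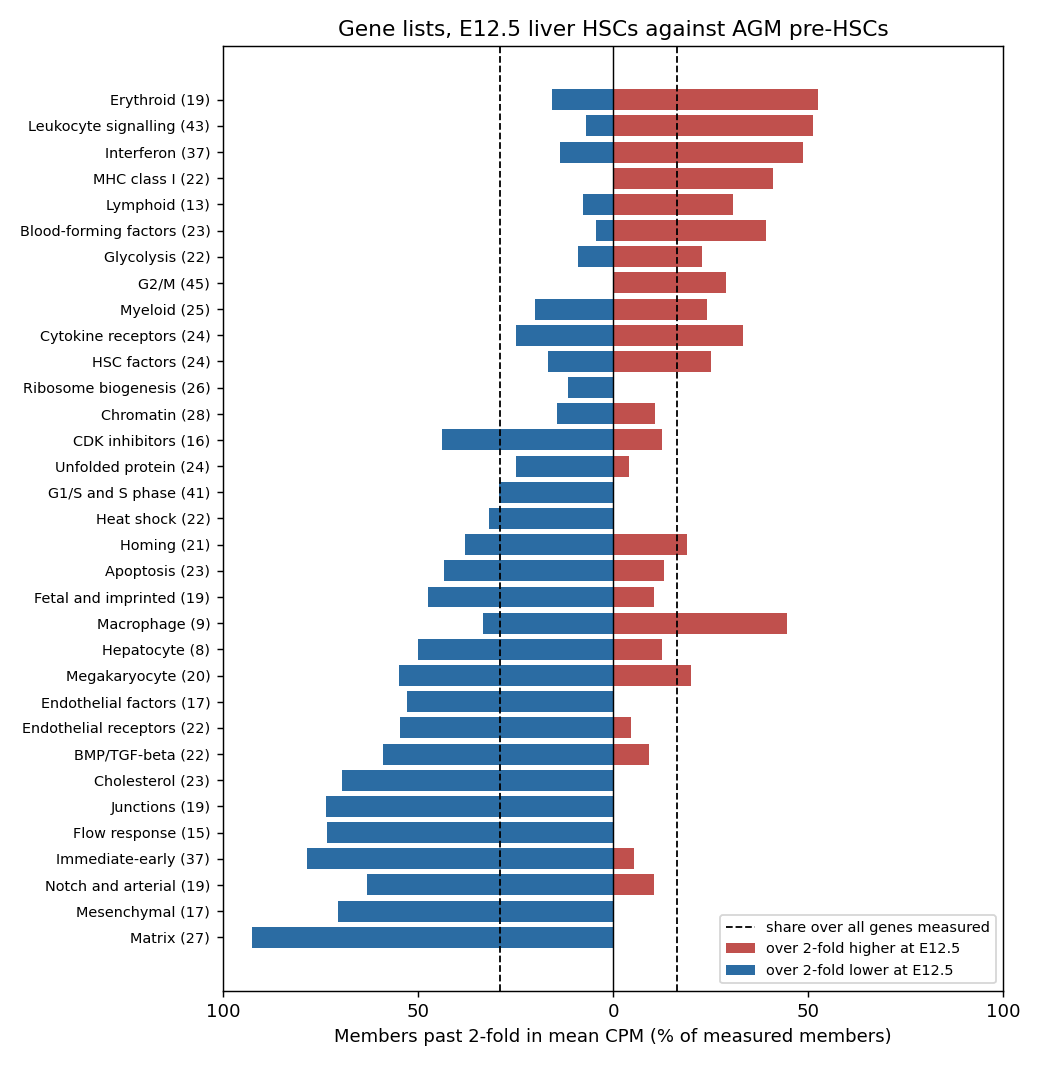
Share of measured members over 2-fold higher (red, right) or lower (blue, left) in E12.5 liver for 33 gene lists, ordered by median log2 ratio, with the number of members in brackets. Dashed lines mark 16.4% and 28.9%, the shares over all genes; matrix, immediate-early and junction genes lie far past the left line and erythroid and leukocyte genes past the right.

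Myeloid genes were read in both groups. Of 25 myeloid genes, 6 were over 2-fold higher and 5 lower, beside 16.4% and 28.9% of all genes. Granule genes were common in both: Prtn3 was read in 41 of 48 AGM cells and 14 of 15 liver cells, Mpo in 33 of 48 AGM cells and 9 of 15 liver cells and Lyz2 in 46 of 48 AGM cells and 13 of 15 liver cells. Cfp, which encodes properdin, was read in 14.6% (6.07% to 27.8%) of AGM cells and 60% (32.3% to 83.7%) of liver cells with a ratio of 4.66. Cebpb, a factor of emergency granulopoiesis, went the other way. It was read in 46 of 48 AGM cells and 9 of 15 liver cells, and the lowest, median and highest levels were 0, 122 and 1372 CPM in AGM and 0, 4.49 and 108 CPM in liver, a ratio of −3.35. Alox5, the leukotriene-making lipoxygenase, was read in 17 of 48 AGM cells and 0 of 15 liver cells. Pooled Alox5 reads were at least 339-fold higher in AGM. In the lymphoid list, Cd79b, a chain of the B cell receptor complex, was read in 26 of 48 AGM cells and 11 of 15 liver cells at a ratio of 1.75. Ebf1, the B lineage factor, was read in 7 AGM cells and no liver cell.

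Megakaryocyte genes were over 2-fold lower in liver for 11 of 20 and over 2-fold higher for 4, beside 28.9% and 16.4% of all genes. Vwf, the platelet and endothelial adhesion protein, was read in 81.2% (67.4% to 91.1%) of AGM cells and 6.67% (0.169% to 31.9%) of liver cells. For Vwf the lowest, median and highest levels were 0, 116 and 1155 CPM in AGM and 0, 0 and 260.3 CPM in liver. A single liver cell therefore set the liver mean, and the ratio was −3.70 (−7.89 without liver cell 2). Pf4 had a ratio of −1.13 (−2.92 without liver cell 2), while Gp9 had 0.79, and liver cells 11 and 2 held the highest levels of Gp9 and Pf4. The highest ratio among megakaryocyte genes was 4.22.

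Erythroid genes had the highest list median, 1.88, with 10 of 19 over 2-fold higher in liver and 3 over 2-fold lower. Hba-a1, an alpha-globin gene, was read in 27.1% (15.3% to 41.8%) of AGM cells and 93.3% (68.1% to 99.8%) of liver cells. For Hba-a1 the lowest, median and highest levels were 0, 0 and 111 CPM in AGM and 0, 66.9 and 1334 CPM in liver, a ratio of 5.70 (4.94 without liver cell 2 and 7.01 without AGM cell 36). Hba-a2 had reads in 4 of 48 AGM cells and 9 of 15 liver cells and a ratio of 3.80. Hbb-bt had reads in 29 of 48 AGM cells and 15 of 15 liver cells and Hbb-bs in 17 of 48 AGM cells and 11 of 15 liver cells, with ratios of 1.88 and 4.09 (3.39 without liver cell 2). Globin copies are near-identical, so the split of reads among them is uncertain. Of other red cell markers, Slc4a1 was read in none of the cells and Klf1 in 3 AGM and 1 liver cell. Alas2, the first enzyme of haem synthesis in red cells, was read in 2 AGM and 2 liver cells, up to 198.7 CPM in liver cell 15. Hbb-y, an embryonic globin, was read in 13 of 48 AGM cells and 7 of 15 liver cells with a ratio of 3.74 (2.95 without liver cell 11). Car2, a carbonic anhydrase that blood progenitors also express, was read in 45 of 48 AGM cells and 15 of 15 liver cells with means of 276 CPM in AGM and 1313 CPM in liver. Summed over 7 erythroid markers, AGM cells ran from 0 to 306 CPM with a median of 0.763 CPM, and liver cells from 0 to 1856 CPM with a median of 121 CPM. The part of erythroid cells or their RNA in the globin values was not tested.

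Markers of neighbouring tissues were counted for each group. Of the 6 hepatocyte markers in the table, Ttr was at 0 in both groups and Afp was read in 3 AGM and 2 liver cells. Apoa1 was read in 8 AGM and 2 liver cells, Apoa2 in 1 AGM and 1 liver cell and Hnf4a in 0 AGM and 2 liver cells. Trf was read in 37 of 48 AGM cells and 6 of 15 liver cells, up to 132.8 CPM in liver. The hepatocyte sum ran from 0 to 293 CPM in AGM with a median of 42.7 CPM, and from 0 to 133 CPM in liver with a median of 0. Macrophage markers were at 0 for 5 of 7 in liver and 2 of 7 in AGM, and Cd68 alone was read in over 3 cells of a group, 21 of 48 AGM cells and 7 of 15 liver cells. Lgals3, a galectin of macrophages, was read in 5 of 48 AGM cells and 3 of 15 liver cells with a ratio of 2.97 (0.19 without liver cell 15 and 3.74 without AGM cell 24). Mesenchymal markers were at 0 for 6 of 7 in liver, with sums from 0 to 18 CPM. In AGM none of the 7 was at 0, and sums ran from 0 to 389 CPM with a median of 0, highest in AGM cell 6. Matrix and smooth muscle reads were higher in AGM beside them, and the part of such cells or their RNA in those results was not tested. Acta2, smooth muscle actin, was read in 17 of 48 AGM cells and 0 of 15 liver cells and was at least 629-fold higher in AGM in pooled reads. Of 8 endothelial markers, which include the gate gene Cdh5, Kdr alone was at 0 in liver. Their sums ran from 152.6 to 2298 CPM in liver with a median of 687 CPM, mostly from Esam and Emcn. In AGM they ran from 82.5 to 8803 CPM with a median of 943 CPM.

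Cell cycle genes were described by phase. Of 41 genes of the G1/S step and DNA synthesis, 12 were over 2-fold lower in liver, close to the 28.9% of all genes, and none over 2-fold higher. In share, 8 of them were at least 30 points lower. Of 45 genes of G2 and mitosis, 13 were over 2-fold higher and none over 2-fold lower, beside 16.4% and 28.9% of all genes. E2f1, the factor that drives S phase genes, was read in 58.3% (43.2% to 72.4%) of AGM cells and 13.3% (1.66% to 40.5%) of liver cells with a ratio of −2.46 (−3.70 without liver cell 1). Ccne2, a cyclin E, was read in 21 of 48 AGM cells and 1 of 15 liver cells with −3.68, and Pola1, a DNA polymerase subunit, in 29 of 48 AGM cells and 4 of 15 liver cells with −1.71 (−2.84 without liver cell 2). Licensing genes differed less, with −1.37 for Mcm3, 0.05 for Mcm5 and −0.15 for Mcm7. On the mitotic side, Dlgap5, a spindle protein, had means of 38.5 CPM in AGM and 158.7 CPM in liver, a ratio of 2.02 (1.43 without liver cell 6). Plk1, the mitotic kinase, had a ratio of 1.72 (1.09 without liver cell 4) and reads in 18 of 48 AGM cells and 7 of 15 liver cells. The share of cells with Dlgap5 reads was 41.7% in AGM and 40% in liver, and its highest liver cell had 909 CPM, against 318 CPM in AGM.

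Genes of G2 and mitosis were then counted per thinned cell. Of 45 such genes, 8 liver cells had reads of 2 to 14 genes and 7 had reads of 34 to 45 genes, and 0 of 15 lay between 15 and 29. The 7 were liver cells 1 to 6 and 13. After thinning, their totals of genes detected ran from 3831 in liver cell 6 to 10104 in liver cell 1. Totals of the 8 ran from 2685 in liver cell 16 to 3781 in liver cell 14, except 4647 in liver cell 11. The part of these totals in the G2 and mitosis counts was not tested. AGM cells filled the range, with 13 of 47 at up to 14 genes, 12 of 47 from 15 to 29 and 22 of 47 from 31 to 44. Cell numbers come from the labels and carry no stated order. The bands were drawn after the values were seen. Before thinning, liver cell 15 had reads of 16 genes, and its summed level of 4782 CPM lay between the other 7 low cells, at up to 1266 CPM, and the 7 high cells, from 9782 CPM.

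**Figure D4:**
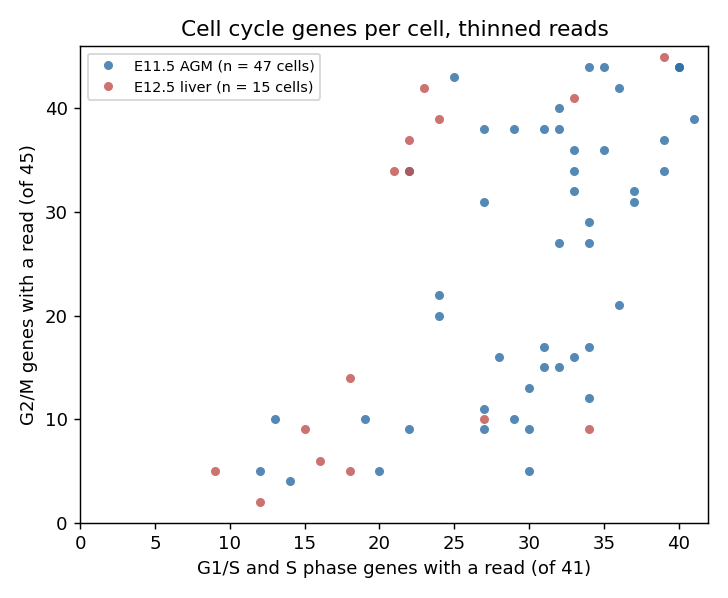
Number of G1/S and S phase genes with a read (horizontal, of 41) against the number of G2/M genes with a read (vertical, of 45) in each cell after thinning, blue for 47 AGM cells and red for 15 liver cells. Liver cells lie either at 14 or fewer G2/M genes or at 34 or more, and AGM cells also lie between.

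Inhibitors of the cycle were described next. Of 16 inhibitor and antiproliferative genes, 7 were over 2-fold lower and 2 over 2-fold higher, beside 28.9% and 16.4% of all genes. In share, 7 were at least 30 points lower, beside 7.19% of all genes. Cdkn1a, which encodes p21, was read in 31 of 48 AGM cells and 2 of 15 liver cells with a ratio of −2.23 (−5.44 without liver cell 14). Cdkn1c, the imprinted p57 gene tied to HSC quiescence, was read in 97.9% (88.9% to 99.9%) of AGM cells and 66.7% (38.4% to 88.2%) of liver cells. For Cdkn1c the lowest, median and highest levels were 0, 295 and 2378 CPM in AGM and 0, 69.6 and 478 CPM in liver, a ratio of −1.995. Rb1, the retinoblastoma gene, was read in 18 of 48 AGM cells and 0 of 15 liver cells and was at least 44.2-fold higher in AGM. Btg3 was read in 42 of 48 AGM cells and 6 of 15 liver cells with −1.79, and Trp53 had means of 406 CPM in AGM and 540.2 CPM in liver.

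Of 23 apoptosis genes, 10 were over 2-fold lower in liver and 3 over 2-fold higher, beside 28.9% and 16.4% of all genes. Summed per cell the list was near level, with medians of 847 CPM in AGM and 831 CPM in liver. Of 15 liver cells, 7 lay above the AGM median. Among survival genes, Mcl1 was read in 48 of 48 AGM cells and 8 of 15 liver cells. For Mcl1 the lowest, median and highest levels were 0.684, 182.98 and 661 CPM in AGM and 0, 7.93 and 534 CPM in liver, a ratio of −1.58 (−2.48 without liver cell 9). Bcl2l1, which encodes BCL-XL, had 1 liver read against reads in 22 AGM cells, and pooled AGM over liver was 406 (counting interval 72.8 to 16053). Bax, which promotes cell death, was level at 235.99 CPM in AGM and 251 CPM in liver.

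Cholesterol synthesis genes were lower in liver for most of the list. Of 23 genes of the sterol pathway and its SREBP control, 16 were over 2-fold lower in liver and none was over 2-fold higher, and 10 were at least 30 points lower in share. Hmgcs1, a synthase early in the pathway, was read in 75% (60.4% to 86.4%) of AGM cells and 33.3% (11.8% to 61.6%) of liver cells. For Hmgcs1 the lowest, median and highest levels were 0, 31.9 and 465 CPM in AGM and 0, 0 and 70.3 CPM in liver, a ratio of −2.68 (−3.30 without liver cell 16). Mvd, which makes isopentenyl diphosphate, was read in 25 of 48 AGM cells and 1 of 15 liver cells with −4.51 (−6.22 without liver cell 1). Dhcr7, which finishes the sterol, was read in 29 of 48 AGM cells and 1 of 15 liver cells with −3.51 (−5.21 without liver cell 1). Srebf2, the transcription factor of the pathway, was not lower, at 81.9 CPM in AGM and 97.8 CPM in liver and with reads in 38 of 48 AGM cells and 14 of 15 liver cells. Summed per cell the list overlapped between groups, with 287, 898 and 4350 CPM in AGM and 202.1, 619 and 1396 CPM in liver as lowest, median and highest. In AGM, 18 cells lay above every liver cell.

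Glycolysis had 5 of 22 genes over 2-fold higher in liver and 2 lower, beside 16.4% and 28.9% of all genes, with a median of 0.70. Abundant enzymes stayed under 2-fold: Eno1 had means of 2466 CPM in AGM and 3968 CPM in liver, Pkm 1369 CPM in AGM and 2294 CPM in liver and Gapdh 4738 CPM in AGM and 5128 CPM in liver. Pdk1, the kinase that inhibits pyruvate dehydrogenase, was read in 18 of 48 AGM cells and 10 of 15 liver cells with a ratio of 2.98 (2.26 without liver cell 10). Pfkm, the muscle phosphofructokinase, was read in 24 of 48 AGM cells and 1 of 15 liver cells with −2.87 (−5.05 without liver cell 1), while Pfkl and Pfkp had 0.96 and 1.21 (0.11 without liver cell 7 and 1.88 without AGM cell 38). Slc16a1, a lactate carrier, had −3.09 (−3.81 without liver cell 1).

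Of 24 unfolded protein response genes, 6 were over 2-fold lower in liver, close to the 28.9% of all genes, and 1 was over 2-fold higher. In share, 6 were at least 30 points lower, beside 7.19% of all genes. Summed per cell, 14 of 15 liver cells lay under the AGM median and 3 under every AGM cell. Ppp1r15a, which encodes GADD34 and restarts translation after stress, was read in 91.7% (80.0% to 97.7%) of AGM cells and 26.7% (7.79% to 55.1%) of liver cells. For Ppp1r15a the lowest, median and highest levels were 0, 344 and 2903 CPM in AGM and 0, 0 and 1460 CPM in liver, a ratio of −1.91 (−3.92 without liver cell 9). Atf4, the factor of the integrated stress response, had −2.29, and Edem1, of endoplasmic reticulum degradation, was read in 30 of 48 AGM cells and 3 of 15 liver cells with −2.11 (−4.11 without liver cell 13). Of 22 heat shock genes 7 were over 2-fold lower, also close to the 28.9% of all genes, and none was over 2-fold higher. In share, 3 heat shock genes were at least 30 points lower. In heat shock sums 7 of 15 liver cells lay under every AGM cell. Hspa4 was read in 48 of 48 AGM cells and 10 of 15 liver cells with a ratio of −1.69 (−2.56 without liver cell 2). In the ribosome biogenesis list 3 of 26 were lower and none higher past 2-fold, under the 28.9% and 16.4% of all genes. The nucleolar methyltransferase Nop2 was read in 37 of 48 AGM cells and 5 of 15 liver cells with −1.16 (−1.76 without liver cell 2), and Utp4 in 34 of 48 AGM cells and 6 of 15 liver cells with −1.89 (−2.64 without liver cell 14).

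Fetal and imprinted genes were over 2-fold lower in liver for 9 of 19 and over 2-fold higher for 2, beside 28.9% and 16.4% of all genes. Zdbf2, a paternally expressed gene, was read in 75% (60.4% to 86.4%) of AGM cells and 20% (4.33% to 48.1%) of liver cells with a ratio of −5.003 (−5.75 without liver cell 1). Peg3, another, was read in 28 of 48 AGM cells and 1 of 15 liver cells with −4.12 (−5.64 without liver cell 6). Igf2 and H19, neighbours on opposite parental alleles, had ratios of −1.88 and −1.40 (−2.19 without liver cell 9), and Igf2 was read in 48 of 48 AGM cells and 12 of 15 liver cells. Dlk1, a Notch-ligand relative that is also a fetal hepatoblast marker, was the main exception. It was read in 35.4% (22.2% to 50.5%) of AGM cells and 73.3% (44.9% to 92.2%) of liver cells, and the lowest, median and highest levels were 0, 0 and 215.03 CPM in AGM and 0, 145.99 and 1537 CPM in liver, a ratio of 3.54. Lin28b, which keeps the fetal programme of HSCs, had means of 26.5 CPM in AGM and 45.4 CPM in liver, and Igf2bp1 was read in 40 of 48 AGM cells and 7 of 15 liver cells with −1.40.

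Of 28 chromatin regulators, 3 were over 2-fold higher and 4 lower, under the 16.4% and 28.9% of all genes. Kdm6b, a demethylase of histone H3 lysine 27, was read in 75% (60.4% to 86.4%) of AGM cells and 20% (4.33% to 48.1%) of liver cells with a ratio of −4.16, and its relative Kdm6a had −3.25 (−4.33 without liver cell 1). Jarid2, a subunit that guides Polycomb complexes, was read in 37 of 48 AGM cells and 5 of 15 liver cells with −1.05 (−2.90 without liver cell 10). Ezh1 and Ezh2, alternative methyltransferases of the same lysine, had 3.08 (2.18 without liver cell 9 and 4.05 without AGM cell 40) and −0.66.

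Over all genes, 5 were read in every liver cell and in under 60% of AGM cells: Acap1, Ebi3, Mir142hg, Psmb8 and Ptprcap. Ptprcap, which encodes a CD45-associated protein, was read in 50% (35.2% to 64.8%) of AGM cells and 100% (78.2% to 100%) of liver cells. For Ptprcap the lowest, median and highest levels were 0, 0.355 and 435 CPM in AGM and 72.5, 993 and 2441 CPM in liver, a ratio of 3.80. Ebi3, a subunit of IL-27 and IL-35, was read in 26 of 48 AGM cells and 15 of 15 liver cells. For Ebi3 the lowest, median and highest levels were 0, 5.85 and 339.6 CPM in AGM and 105, 529 and 1708 CPM in liver, a ratio of 3.24. Mir142hg, the host transcript of a blood-specific microRNA, was read in 15 of 48 AGM cells and 15 of 15 liver cells, at low means of 3.22 CPM in AGM and 16.6 CPM in liver. No gene was read in over 50% of liver cells and in no AGM cell. In the other direction 9 genes were read in over 50% of AGM cells and in no liver cell: Atf3, Bach1, Cntln, Fbn2, Mmp2, Nr4a2, Sncg, Timp3 and Tmem2.

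Further genes came from the largest differences in share. Prkcq, the kinase PKC-theta of T cells, was read in 16.7% (7.48% to 30.2%) of AGM cells and 66.7% (38.4% to 88.2%) of liver cells with a ratio of 4.41. Samd9l, an interferon-induced growth inhibitor, was read in 6 of 48 AGM cells and 9 of 15 liver cells with 3.90 (4.90 without AGM cell 10). Plac8, a small cysteine-rich protein of myeloid and lymphoid progenitors, was read in 6 of 48 AGM cells and 9 of 15 liver cells with 2.59 (3.50 without AGM cell 20). Toporsos, an antisense transcript, was read in 0 of 48 AGM cells and 7 of 15 liver cells, but whether counting used strand is not given in the sources used here. Pooled Toporsos reads were at least 133-fold higher in liver, and the log2 ratio was 3.09 (2.17 without liver cell 10). On the lower side, Tspan18, an endothelial tetraspanin, was read in 85.4% (72.2% to 93.9%) of AGM cells and 13.3% (1.66% to 40.5%) of liver cells with −5.32 (−6.05 without liver cell 13). Coq10b, of coenzyme Q function, was read in 39 of 48 AGM cells and 2 of 15 liver cells with −2.63 (−5.61 without liver cell 14). Sde2, of genome maintenance and splicing, had 45 and 4 cells with −2.79, and Purb, a single-strand DNA-binding protein, 39 and 2 cells with −2.96 (−4.09 without liver cell 12).

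Yolk sac and E14.5 cells give side values for the leading genes, with no comparison drawn. Cdh5 was read in 43.8% of yolk sac and 6.25% of E14.5 cells, Hes1 in 56.2% of yolk sac and 0% of E14.5 cells and Vwf in 31.2% of yolk sac and 18.8% of E14.5 cells. Nr4a1 was read in 93.8% of yolk sac and 18.8% of E14.5 cells. H2-T23 was read in 62.5% of yolk sac and 62.5% of E14.5 cells, and Psmb8 in 81.2% of yolk sac and 100% of E14.5 cells. Ptprcap was read in 75% of yolk sac and 93.8% of E14.5 cells. For Bcl2l1 the shares were 50% of yolk sac and 50% of E14.5 cells, beside 1 of 15 liver cells at E12.5.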

How the data were processed

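Single cells of C57BL/6 embryos were measured by SMART-Seq, with no molecular identifiers, so reads from PCR copies are not independent molecules. The authors deposited raw counts, whole reads per gene and cell, in a table of 19949 gene rows. Reads had been handled with FastQC, Trimmomatic 0.36, STAR and HTSeq on build mm10, per the submitters' processing notes; the annotation and strand setting are not given in the sources used here. Here, rows sharing a symbol were summed (113 rows), leaving 19836 genes, and counts were scaled to a total of 1000000 per cell (CPM). Groups came from the sample titles. Cells under 2000 genes were left out, and genes with under 30 reads over both groups were not analysed. Levels were means of CPM, with ratios after adding 1 CPM, and shares counted cells with at least 1 read. Each group counts as 1 sample, so no test was made.

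Depth ran from 267500 to 1889909 reads per kept cell, and shares were also computed after thinning cells to 500000 reads, which left out 1 AGM cell. Folds against a group with 0 reads used a floor of 3 reads over the group, and they bound pooled reads only. The genes named were the sort markers, up to 4 genes a list in each direction past both thresholds by difference in share (the 2 largest ratios where none passed), and 10 over all genes in each direction; a few of these genes are not reported here. The members and lists were chosen with earlier results of these data known. Alternatives were other pseudocounts, scalings, filters and thinning, and leaving out each liver cell. Scripts ran in Python 3.11.15 with numpy 2.4.6, pandas 2.3.3, scipy 1.17.1 and matplotlib 3.10.9 and were tested on simulated counts. Simulated cells of a group differed by depth and counting error only. That test covers the arithmetic and says nothing of how reliable the differences between real cells are. Promoter windows are RefSeq's on GRCm38.p6, the NCBI name of the build that mm10 follows.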

Additional observations from a re-analysis of the deposited data

How the results depend on the processing

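No paired analysis was possible because the cell numbers name no animal, litter or batch and no test was made. The counts depended on the scale: with 10 CPM added, 1136 genes were over 2-fold higher and 1177 lower, and 632 were higher when log2 CPM values were averaged. Matrix genes over 2-fold lower numbered 15 when log2 values were averaged, and arterial and Notch genes 7 with 10 CPM added and 6 when log2 values were averaged. Among genes named by the rule and past 2-fold, the ratios that changed sign were that of Csf1r, 3.18 with no filter on cells, and that of Gbp7, −0.16 without liver cell 4 and up to 1.11 without another. Leaving out each liver cell gave 2253 to 2376 genes higher and 4147 to 4503 lower in level, and 58 to 110 higher and 918 to 1505 lower in share. Without the 4 wells of 10000 or more genes the level counts were 2398 and 4400, and without AGM cells 3 and 36 they were 2428 and 3980. Both of these alternatives were chosen after seeing the data. Of ratios of named genes, 879 of 909 moved by less than the SD between cells in the other settings and 1509 of 1514 when a liver cell was left out. That SD was wide, for example 3.44 on the log2 scale for Ly6a in liver and 3.19 for Nr4a2 in AGM. Dropping the minimum on reads per gene, also among the settings, could not change a ratio. These counts therefore say little about how stable the ratios are. Other genes whose sign turned without 1 liver cell are marked in brackets beside their ratios. With 15 liver cells, 1 cell moves a share by 6.67 points.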
